A study of Mus musculus with 78 samples.

Results

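Newly made RNA was set against the standing pool of polyadenylated RNA in control mouse embryonic stem cells (mESCs). Of the 78 libraries of the series, 4 were used, chosen by their labels alone: 2 control libraries of transient transcriptome sequencing (TT-seq) and 2 control libraries of an RNA-seq time course. Genes entered the comparison when they had more than 10 counts in both libraries of at least 1 assay, which held for 17276 of 55401 genes in the tables. All 4 libraries came from ZFP143-FKBP cells, an E14TG2a line in which the endogenous Zfp143 gene was extended by an FKBP degron, HA tags and eGFP. The line was made by sorting single cells and keeping homozygous clones that responded to the degrader. Which clone gave these libraries, and whether it was the same in both assays, is not given in the sources used here. The control cells received DMSO, the solvent of the degrader dTAG-V1, and no degrader. For TT-seq the study's methods list times of treatment with DMSO or dTAG-V1, but not which applied to these controls, which carry the time label 0H. How long the RNA-seq controls were kept in DMSO is not given in the sources used here. The cells grew in serum-free 2i/LIF medium, which holds the cytokine LIF, the MEK inhibitor PD0325901 and the GSK3 inhibitor CHIR99021.

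TT-seq marks RNA while it is being made. Cells take up 4-thiouridine (4sU), here 2 mM for 10 min, RNA polymerases build it into growing transcripts, and the labelled fragments are pulled out by a biotin tag and sequenced. Introns are therefore read before they are spliced out and lost, and no poly(A) tail is needed. The RNA-seq libraries were made from poly(A)-selected RNA, so they show mature, tailed transcripts at steady state, where synthesis and decay balance. Most mRNAs carry a poly(A) tail, but the mRNAs of replication-dependent histones end in a stem-loop instead, and RNAs made by RNA polymerase III, small nuclear RNAs and most small nucleolar RNAs also lack the tail. In mESCs a compact set of transcription factors, with Pou5f1, Sox2 and Nanog at its centre, holds the pluripotent state, and signalling through the FGF and MEK pathway opens the way out of it.

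Each value below is a count, or a count scaled to the library's total (CPM, counts per 1000000 counts of that library). The log2 ratio compares TT-seq with RNA-seq CPM. A gene is called rich in nascent RNA when edgeR's quasi-likelihood test gave a Benjamini-Hochberg adjusted p under 0.05 and the log2 ratio was above 1, and rich in steady-state RNA when the ratio was below -1. The SE printed with a log2 ratio is its absolute value divided by the square root of the F statistic of that test. It is not a separate estimate, and where 1 assay holds few counts it can understate the counting error. TT-seq reads were counted over whole genes, introns included, and RNA-seq reads over exons. A second scale was therefore used, in which TT-seq CPM was divided by the kilobases of gene span and RNA-seq CPM by the kilobases of exon. Labelling, library preparation, removal of duplicate reads and counting all differed between the assays, and what each adds to a ratio cannot be told apart from the difference between nascent and steady-state RNA. The sources used here do not say that the assays shared cultures, so culture may add to a ratio too. Neither the p-values nor the SEs measure a spread between experiments.

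The TT-seq libraries held 9721568 and 13255099 counts, and the RNA-seq libraries 12132490 and 15316700. Replicates of TT-seq differed more than those of RNA-seq: the SD of the log2 ratio of replicate 2 to replicate 1 was 0.51 over 16337 genes in TT-seq and 0.25 over 12930 genes in RNA-seq. The biological coefficient of variation that edgeR estimated was 20.6% in TT-seq and 5.46% in RNA-seq. The first RNA-seq library held more of several untailed RNAs than the second. CT010467.1, annotated as a ribosomal RNA on chromosome 17, took 35934 CPM in the first and 4722 CPM in the second, against 39877 and 32279 CPM in TT-seq. Histone mRNAs, summed over the 70 replication-dependent genes, took 50.8 and 10.3 CPM. Summed small nuclear RNAs, with 5.19 and 5.22 CPM, and small nucleolar RNAs, with 54.7 and 51.4 CPM, were alike in both. For the classes and genes below where this library moves a value most, the value is also given against each RNA-seq library alone.

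Of the 17276 genes tested, 10513 (60.9%) were called: 7319 (42.4%) were rich in nascent RNA and 3194 (18.5%) in steady-state RNA. The median log2 ratio was 0.57, a 1.49-fold difference, the middle 90% of genes lay between -2.52 and 8.24, and the median of the ratio per kilobase was -1.96. More than 10 counts in both libraries of both assays were found for 11991 genes, while 4346 genes passed through TT-seq alone and 939 through RNA-seq alone. No count was found in either RNA-seq library for 1515 genes, and none in either TT-seq library for 87. Genes that share no base with another gene on the same strand had a lower median log2 ratio, 0.14 over 12076 genes. Protein-coding genes had a median of 0.21 on the CPM scale and -2.28 per kilobase. Of 13348 protein-coding genes, 4216 (31.6%) were rich in nascent and 2637 (19.8%) in steady-state RNA. Classes whose members mostly passed through TT-seq alone had to lie on the nascent side, so these are described first by their sums over all annotated members.

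**Figure D1:**
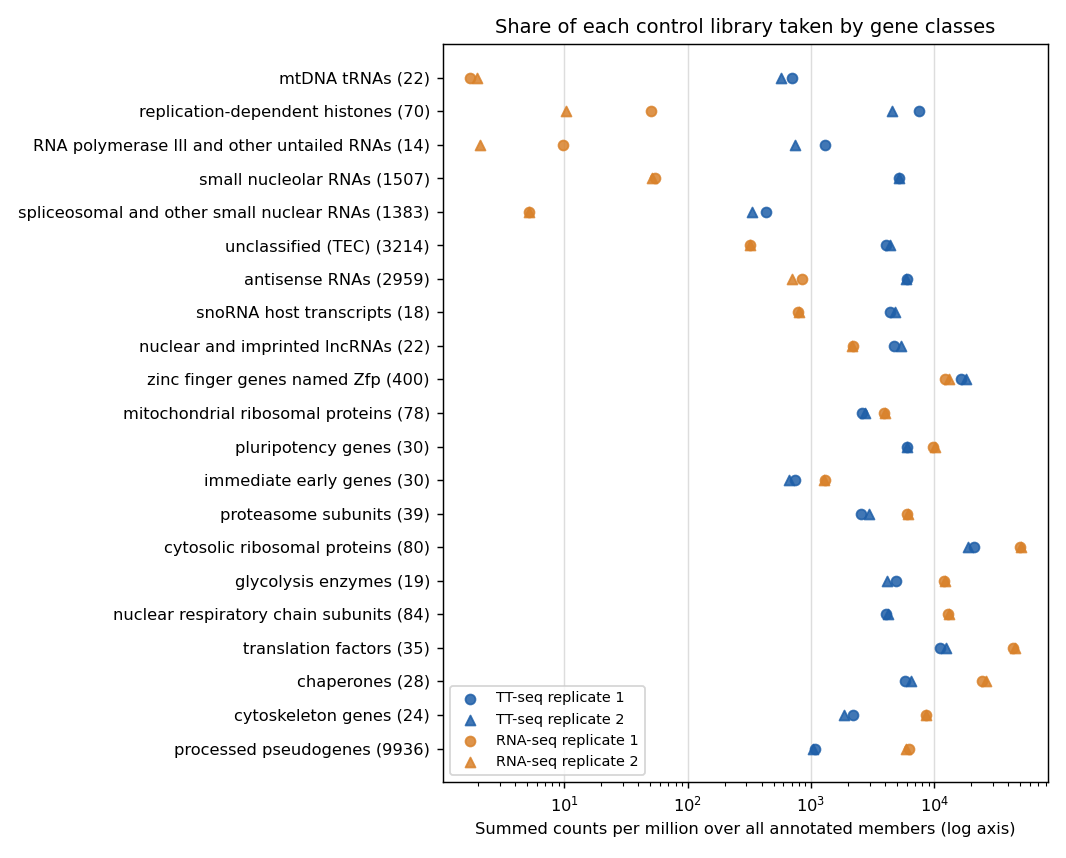
Summed CPM (log axis) of gene classes in each control library, over all annotated members (number in brackets), ordered by the ratio of TT-seq (blue) to RNA-seq (orange), with circles for replicate 1 and triangles for replicate 2. Replication-dependent histones take 7521 and 4574 CPM in TT-seq against 50.8 and 10.3 CPM in RNA-seq, and chaperones 5819 and 6503 CPM against 24500 and 26149 CPM. The RNA polymerase III class counts Rmrp under both of its identifiers.

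The replication-dependent histone genes, which supply the core and linker histones that package new DNA in S phase, stood furthest to the nascent side among the mRNA classes. Their 70 annotated genes took 7521 and 4574 CPM of the TT-seq libraries and 50.8 and 10.3 CPM of the RNA-seq libraries. Both TT-seq sums lay far above both RNA-seq sums, and the means differed 198-fold. Against the first RNA-seq library alone the difference was 119-fold, and against the second alone 586-fold. Of the 65 genes tested, 63 passed through TT-seq alone, and all 65 were rich in nascent RNA, where 42.4% of all genes tested were. Their log2 ratios ran from 3.29 to 10.48 with a median of 7.88, which moved between 7.26 and 9.35 when 1 library was left out. Of the 65 genes, 62 have 1 exon, and the median per kilobase was 7.86.

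The linker histone gene Hist1h1a (chr13:23763666-23764406) gave 5485 and 4652 counts in TT-seq and 49 and 14 in RNA-seq, a log2 ratio of 7.60 (SE 0.52, adjusted p = 1.57e-05) that was 8.95 without the first RNA-seq library and 6.82 without the second. Hist1h1d, another linker histone, gave 4568 and 3936 against 40 and 6 counts. Hist1h4d, a gene for histone H4, gave 3577 and 2846 against 36 and 9 counts. In each of these the RNA-seq counts were a small fraction of the TT-seq counts, and the first RNA-seq library held more than the second. The highest ratio was that of Hist2h2bb, a gene for histone H2B (chr3:96269752-96270132), with 2484 and 2539 counts against 4 and 0, a log2 ratio of 10.48 (SE 0.44). The lowest was that of Hist2h2be, with 32 and 43 counts against 2 and 7, a log2 ratio of 3.29 (SE 0.49, adjusted p = 0.000604).

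The stem-loops are shown because they are the 3′ ends that poly(A) selection does not hold. A script searched the strand of the transcript for the histone stem-loop within 150 bases after the stop codon, as a pattern of 16 bases with 10 fixed and 6 free, in the GRCm38 (mm10) genome. It was found in 60 of the 63 tested histone genes with an annotated coding transcript (95.2%) and in 3 of 13155 other protein-coding genes tested (0.0228%), which were Snrpa, Bst2 and H2afx. The histone genes without a match were Hist2h2be, Hist1h2an and Hist1h2bp. The 5 forms found in more than 1 gene follow, read 5′ to 3′, with the 6-base arms of the stem in capitals and the 4-base loop in lower case.
In 36 genes, such as Hist1h1a: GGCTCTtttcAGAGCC
In 9 genes: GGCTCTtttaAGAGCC
In 8 genes, such as Hist1h4d: GGCCCTtttcAGGGCC
In 2 genes, Hist1h4i and Hist2h4: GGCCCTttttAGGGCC
In 2 genes, Hist1h4b and Hist1h4j: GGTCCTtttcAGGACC
The Hist1h1a stem-loop lies at chr13:23764392-23764407 on the plus strand and begins 34 bases after the stop codon. That of Hist2h2bb lies at chr3:96270171-96270186 and begins 39 bases after the stop codon. A poly(A) signal, AATAAA or ATTAAA in the last 50 bases of the annotated transcript, was found in 23.8% of the 63 histone genes and in 75.3% of the others. Of the 3 genes without a stem-loop match in this window, Hist2h2be had the lowest ratio of the list, while Hist1h2bp was at 6.35 and Hist1h2an at 8.88, above the median of the list.

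**Figure D2:**
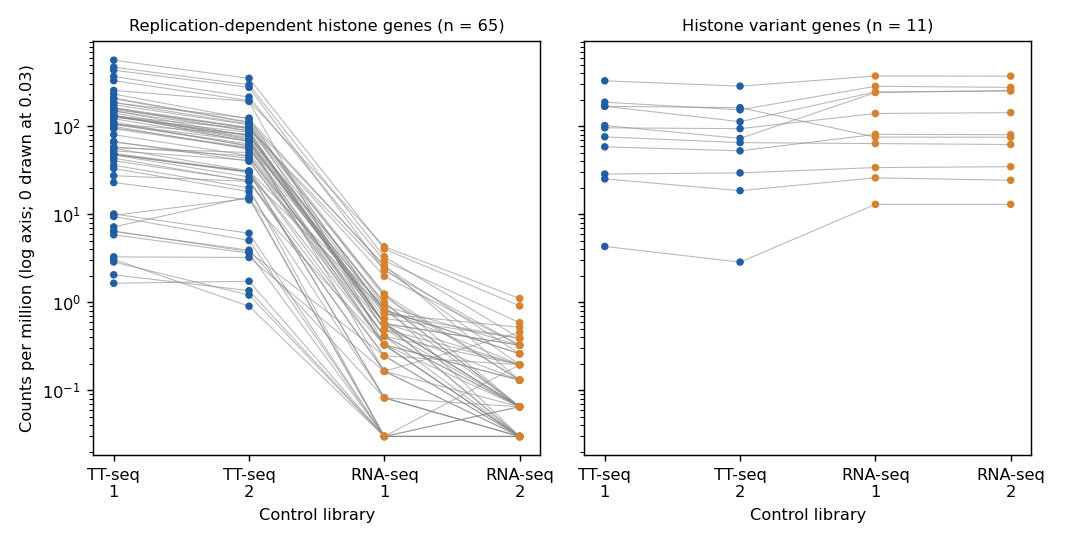
CPM (log axis) of each tested histone gene in the 4 control libraries, with a grey line joining the points of a gene and a count of 0 drawn at the bottom. The 65 replication-dependent genes fall from TT-seq to RNA-seq, while the 11 variant genes, with log2 ratios from -1.87 to 1.14, go both ways and far less steeply.

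Histone variants, which are not tied to S phase and mostly have ordinary polyadenylated mRNAs, did not share this pattern. All 11 had more than 10 counts in the 4 libraries. Their median log2 ratio was -0.54. Of the 11, 1 was rich in nascent RNA (9.09%, against 42.4% of all genes and 31.6% of protein-coding genes). Another 2 were rich in steady-state RNA (18.2%, near the 18.5% of all genes). H2afz, the gene of H2A.Z, gave 102 and 73 CPM in TT-seq and 242 and 255 CPM in RNA-seq, a log2 ratio of -1.51 (SE 0.17, adjusted p = 0.000147). The linker variant H1fx gave 4.32 and 2.87 against 13 and 13 CPM, a log2 ratio of -1.87 (SE 0.28). H3f3a and H3f3b both encode H3.3, yet lay apart: H3f3a gave 169 and 163 against 75.5 and 75.2 CPM, and H3f3b gave 188 and 154 against 285 and 277 CPM. The log2 ratio of H3f3a was 1.14 (SE 0.11, adjusted p = 7.38e-05) and that of H3f3b was -0.71 (SE 0.13). H3f3a lost its call when libraries were scaled by TMM or DESeq2 factors, and H3f3b gained one under TMM (-1.04). H2afx, whose product marks DNA breaks, has 1 exon and a stem-loop match, and gave 169 and 113 against 246 and 252 CPM, a log2 ratio of -0.82 (SE 0.19) that was not called. H2afx was called rich in steady-state RNA under TMM (-1.15) or DESeq2 scaling (-1.10), without the first TT-seq library (-1.13) and against the RNA-seq controls of a retinoic acid experiment (-1.66).

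Small RNAs without a tail were held mainly by the nascent libraries. Annotated small nuclear RNAs, which form the spliceosome, summed to 433 and 334 CPM in TT-seq and 5.19 and 5.22 CPM in RNA-seq, a 73.6-fold difference. Small nucleolar RNAs, which guide the modification of ribosomal RNA, summed to 5158 and 5229 against 54.7 and 51.4 CPM, a 97.9-fold difference. Small Cajal body RNAs summed to 87.2 and 67.7 against 2.56 and 1.63 CPM, 30.3-fold against the first RNA-seq library and 47.5-fold against the second. In each of these classes both TT-seq libraries lay above both RNA-seq libraries. All 36 small nuclear, 276 small nucleolar and 13 small Cajal body RNAs tested were rich in nascent RNA, where 42.4% of all genes were, and of these 36, 262 and 13 had passed through TT-seq alone. Most small nucleolar RNAs lie inside introns of other genes, and where a host is transcribed in the same direction TT-seq reads of the intron count for both.

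RNAs made by RNA polymerase III, with other untailed RNAs of that kind, were the next group. Their 14 identifiers include Rmrp under 2 that overlap and hold the same counts. With Rmrp counted once, the 13 genes summed to 972 and 574 CPM in TT-seq and 9.81 and 2.09 CPM in RNA-seq. That was a 130-fold difference, 78.8-fold against the first RNA-seq library and 370-fold against the second, and with Rmrp counted under both it was 172-fold. Rn7sk, the RNA that holds the elongation factor P-TEFb in check (chr9:78175303-78175633), gave 3869 and 3328 counts in TT-seq and 114 and 32 in RNA-seq, a log2 ratio of 5.87 (SE 0.57, adjusted p = 7.22e-05) that was 7.27 without the first RNA-seq library and 5.11 without the second. Rmrp, the RNA of RNase MRP, gave 3238 and 2268 counts and none in RNA-seq, so it was at least 2193-fold higher. That bound takes 3 counts over both RNA-seq libraries. Rpph1, the RNA of RNase P, gave 1987 and 1504 counts against none and was at least 1390-fold higher. Terc, the template RNA of telomerase, gave 50 and 48 counts against none and was at least 39-fold higher. The Y RNA gene Rny3 gave 71 and 192 counts against none.

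Transcripts of mitochondrial DNA split by kind. The 22 mitochondrial tRNAs summed to 702 and 571 CPM in TT-seq and 1.73 and 1.96 CPM in RNA-seq, a 345-fold difference. mt-Tl1, a leucine tRNA, gave 2909 and 3623 counts against none in RNA-seq, at least 2601-fold higher. The ribosomal RNAs mt-Rnr1 and mt-Rnr2 together took 6495 and 5362 against 712 and 470 CPM, 8.33-fold against the first RNA-seq library and 12.6-fold against the second, and both were rich in nascent RNA, with log2 ratios of 3.22 and 3.40. mt-Co1, a cytochrome oxidase subunit, stood on the other side, with 1322 and 1118 against 8006 and 8855 CPM, a log2 ratio of -2.79 (SE 0.20, adjusted p = 2.09e-05). mt-Nd1 gave 1561 and 1296 against 2787 and 3310 CPM, a log2 ratio of -1.09 (SE 0.18) that was -0.97 without the second TT-seq library and -0.96 without the second RNA-seq library, short of the call. mt-Cytb, at -0.97, was not called, but was called rich in steady-state RNA under TMM (-1.29) or DESeq2 scaling (-1.24), without the first RNA-seq library (-1.07) and against the retinoic acid controls (-1.53). mt-Nd5, at -0.46, was not called. mt-Nd6, the only mRNA made from the light strand and known to lack a stable poly(A) tail, gave 401 and 377 against 13.5 and 30.9 CPM. Its log2 ratio was 4.12 (SE 0.34, adjusted p = 3.81e-05), and it was the only 1 of the 7 mitochondrial mRNAs tested that was rich in nascent RNA. The other 6 mRNAs lie between positions 7013 and 10173 of the mitochondrial genome and held at most 7 counts in any library, so nothing can be said of them.

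MicroRNA precursors are hairpins cut in the nucleus from longer transcripts. The miR-290 cluster on chromosome 7 is the main microRNA locus of mESCs, and it is shown because all 7 of its annotated precursors passed and none shares a base with another gene on its strand. Its products hold closely related seeds, bases 2 to 8 of the mature RNA, which are in capitals. The sequences are those of RefSeq on GRCm38.p6.
mmu-miR-291a-3p: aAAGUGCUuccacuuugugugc
mmu-miR-294-3p: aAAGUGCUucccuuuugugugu
mmu-miR-295-3p: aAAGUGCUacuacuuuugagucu
mmu-miR-290a-3p: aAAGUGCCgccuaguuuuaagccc
mmu-miR-291b-3p: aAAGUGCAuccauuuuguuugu
mmu-miR-293-3p: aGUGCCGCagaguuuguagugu
The first 3 share 1 seed, and the others differ from it at its end or are shifted. Together the 7 precursor loci gave 2549 and 3595 counts in TT-seq and 139 and 161 in RNA-seq.

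All 7 precursors of the cluster were rich in nascent RNA, where 42.4% of all genes were. Mir290a, Mir291a and Mir292 had passed through TT-seq alone and so had to lie on that side, and the other 4 had more than 10 counts in all 4 libraries. Mir290a (chr7:3218626-3218708) gave 305 and 415 counts against 0 and 5, a log2 ratio of 7.36 (SE 0.48). Mir291a gave 252 and 303 counts against 7 and 8, a log2 ratio of 5.45 (SE 0.28). Mir292, whose mature product is miR-292a, gave 452 and 589 against 17 and 7, a log2 ratio of 5.67. Mir291b gave 595 and 778 against 42 and 49, a log2 ratio of 4.17 (SE 0.17). Mir293, Mir294 and Mir295 lie further along the cluster, and their log2 ratios were 4.70, 3.86 and 3.73. Differences between precursors were not tested.

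Over all 2202 annotated microRNA precursors the sums were 2429 and 1992 CPM in TT-seq and 1000 and 315 CPM in RNA-seq, 2.21-fold against the first RNA-seq library and 7.01-fold against the second. A few short annotations carried much of the RNA-seq sum. Gm23935 (chromosome 16, 57 bases) gave 566 and 361 against 790 and 223 CPM, and its log2 ratio was -0.13 (SE 0.51, adjusted p = 0.828). Without the first RNA-seq library the ratio of Gm23935 turned to 1.06. Of the transcripts that host microRNAs, 4 of the 5 tested were rich in nascent RNA, beside 42.4% of all genes. All 5 overlap other genes on their own strand, and TT-seq reads of a shared stretch count for each gene. Mir17hg, the host of the miR-17-92 cluster, gave 92.9 and 152 against 39.4 and 36.8 CPM, a log2 ratio of 1.69 (SE 0.23, adjusted p = 0.000352). Mirg, in the imprinted Dlk1-Dio3 region, gave 495 and 431 against 40.6 and 34 CPM, a log2 ratio of 3.64 (SE 0.15).

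Long noncoding RNAs that act or stay in the nucleus leaned to the nascent side. The 22 nuclear and imprinted RNAs of the list summed to 4727 and 5341 CPM in TT-seq and 2197 and 2160 CPM in RNA-seq, a 2.31-fold difference. Of the 19 tested, 11 were rich in nascent RNA (57.9%, against 42.4% of all genes) and 2 in steady-state RNA (10.5%, against 18.5%), with a median log2 ratio of 1.59 against 0.57 over all genes. Kcnq1ot1, an unspliced RNA that silences neighbouring genes on the paternal chromosome, gave 331 and 323 against 4.37 and 5.22 CPM, a log2 ratio of 6.08 (SE 0.16, adjusted p = 1.1e-06). It has 1 exon of 93092 bases, so the ratio per kilobase was the same. Tsix, the antisense partner of Xist, gave 373 and 601 against 12 and 12.6 CPM, a log2 ratio of 5.30 (SE 0.26). Airn, the imprinted antisense RNA of Igf2r, gave 166 and 174 counts against 0 and 1. The strand setting behind the RNA-seq counts is not given in the sources used here, so reads of an antisense RNA and its partner may not be apart there.

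Malat1, of the nuclear speckles, gave 651 and 838 against 142 and 145 CPM, a log2 ratio of 2.38 (SE 0.16, adjusted p = 1.39e-05). Neat1, the scaffold of paraspeckles, gave 383 and 459 against 153 and 128 CPM, a log2 ratio of 1.59 (SE 0.15). The imprinted RNAs Meg3 and Rian lay near 0 at -0.08 and 0.13, where neither assay took the larger share. Lncenc1, a long noncoding RNA of mESCs, gave 579 and 681 against 316 and 324 CPM, a log2 ratio of 0.98 that fell short of the call, but was called at 1.09 without the first TT-seq library. Tug1, at -1.06 (SE 0.13), and 1700020I14Rik, at -1.54 (SE 0.13), were rich in steady-state RNA. Without the first TT-seq library Tug1 was at -0.94 and no longer called.

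Host transcripts of small nucleolar RNAs are spliced and exported, but many are quickly degraded in the cytoplasm, and most lay on the nascent side. The 18 hosts summed to 4351 and 4806 CPM in TT-seq and 784 and 794 CPM in RNA-seq, a 5.8-fold difference. Of the 17 tested, 15 were rich in nascent RNA (88.2%, against 42.4% of all genes) and 1 in steady-state RNA. Gas5 gave 802 and 977 against 205 and 208 CPM, a log2 ratio of 2.11 (SE 0.15, adjusted p = 1.64e-05). Snhg3 gave 541 and 597 against 24.9 and 23.8 CPM, a log2 ratio of 4.55 (SE 0.14). Snhg1, at 2.80, and Zfas1, at 2.92, lay between them. Snhg11 was the exception, with 8.33 and 10.8 against 36.1 and 32.4 CPM, a log2 ratio of -1.83 (SE 0.19). Every host tested overlaps other genes on its own strand, and TT-seq reads of a small nucleolar RNA count for the host too. The median per kilobase was 2.02 against -1.96 over all genes.

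Less characterised classes were more often nascent. Antisense RNAs summed to 6046 and 5929 CPM in TT-seq and 844 and 698 CPM in RNA-seq, a 7.77-fold difference. Intergenic noncoding RNAs, annotated as lincRNA, differed 4.64-fold, with 12264 and 12574 against 2690 and 2668 CPM. Unclassified transcripts of the TEC type, which await experimental support, differed 13-fold. Of those tested, 526 of 570 antisense RNAs, 556 of 635 lincRNAs and 663 of 696 TEC genes were rich in nascent RNA, where 42.4% of all genes were. Most had passed through TT-seq alone, 465, 452 and 628 of them. Among members with more than 10 counts in all 4 libraries the medians were 1.81 over 97 antisense RNAs, 1.62 over 170 lincRNAs and 1.60 over 62 TEC genes, where the median of all such genes was 0.08.

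Gene length went with the ratio of CPM. Among 9919 protein-coding genes that share no base with another gene on their strand, replication-dependent histones left out, the median log2 ratio rose with each class of span. It was -1.96 over 224 genes under 2 kb, -1.10 over 2308 genes of 2 to 10 kb and -0.09 over 5084 genes of 10 to 50 kb. It was 1.02 over 2004 genes of 50 to 200 kb and 2.95 over 299 genes over 200 kb. Of the 299 longest genes, 278 (93%) were rich in nascent RNA, where 10.3% of the shortest were. Of the shortest, 69.2% were rich in steady-state RNA. Some genes of each class had passed through 1 assay alone, which favoured a side. Where all 4 libraries held more than 10 counts, 162 of the 183 longest genes (88.5%) were rich in nascent RNA. Of the shortest such genes 3.33% were, and the CPM medians of such genes still rose with each class. Over all 9919 genes, those rich in nascent RNA had a median span of 55.9 kb and those rich in steady-state RNA one of 8.01 kb. Per kilobase no such rise remained: the medians of the 5 classes were -2.20, -2.21, -2.35, -2.54 and -2.20. Among genes with more than 10 counts in all 4 libraries they fell with span, at -2.22, -2.25, -2.42, -2.65 and -2.75. Across the 9919 genes Spearman's rho of the ratio with span was 0.59 on the CPM scale and -0.09 per kilobase, a description across genes that share libraries. The 207 genes with 1 exon had a median of -1.27 on both scales, while the 9712 genes with more exons had -0.02 on the CPM scale and -2.36 per kilobase.

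**Figure D3:**
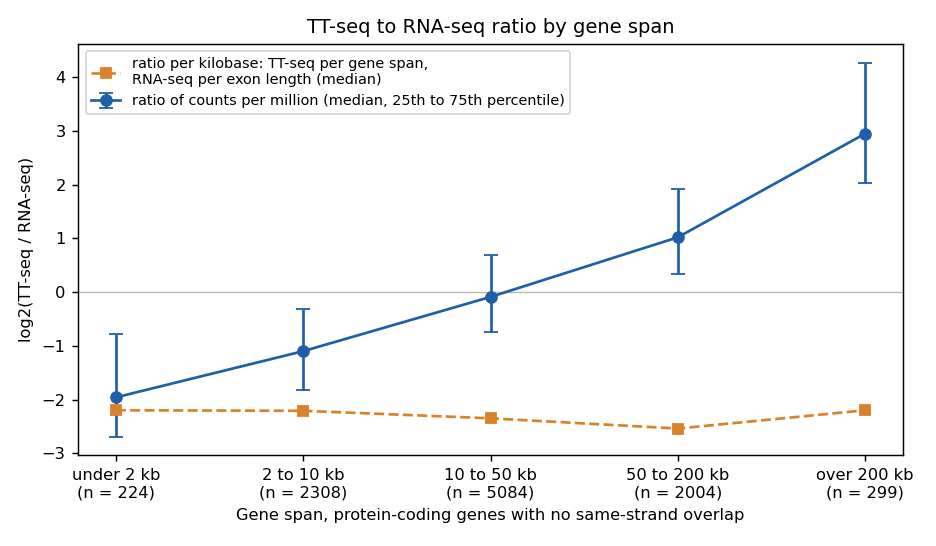
Median log2 ratio of TT-seq to RNA-seq in 5 classes of gene span, as a ratio of CPM (blue, bars from the 25th to the 75th percentile over genes) and per kilobase of span and of exon (orange). The CPM medians climb from -1.96 under 2 kb to 2.95 over 200 kb, while the medians per kilobase stay between -2.54 and -2.20.

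Genes that serve every cell had the opposite balance from the nuclear RNAs, with larger shares of the RNA-seq libraries. Ribosomal proteins of the cytosol took 20871 and 18736 CPM in TT-seq and 49164 and 50432 CPM in RNA-seq, a 2.51-fold difference. Translation factors took 11054 and 12416 against 43249 and 45569 CPM, 3.78-fold, and chaperones took 5819 and 6503 against 24500 and 26149 CPM, 4.11-fold. Cytoskeleton genes differed 4.25-fold, subunits of the nuclear-encoded respiratory chain 3.18-fold, glycolysis enzymes 2.67-fold and proteasome subunits 2.21-fold. In these 7 classes both RNA-seq sums lay above both TT-seq sums. The share of tested members rich in steady-state RNA was 49 of 80 ribosomal proteins, 23 of 35 translation factors and 23 of 27 chaperones. It was 17 of 24 cytoskeleton genes, 55 of 83 respiratory chain subunits, 12 of 19 glycolysis enzymes and 22 of 36 proteasome subunits, beside 18.5% of all genes tested.

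Eef1a1, the elongation factor that brings tRNAs to the ribosome, took 884 and 769 CPM of the TT-seq libraries and 10585 and 11084 CPM of the RNA-seq libraries. Its log2 ratio was -3.71 (SE 0.21, adjusted p = 8.1e-06), the lowest of the translation factors. Eef2, which moves the ribosome along the mRNA, gave 673 and 449 against 6291 and 6329 CPM, a log2 ratio of -3.49 (SE 0.25). Ncl and Npm1, nucleolar proteins of ribosome assembly, were less extreme at -1.52 and -1.81. Eif4a2, a helicase of translation initiation, was the highest of the list, with 1011 and 1235 against 653 and 664 CPM, a log2 ratio of 0.77 (SE 0.15) that fell short of the call, but passed it against the retinoic acid controls (1.22). Eif4a2 overlaps 6 genes on its strand.

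Hsp90ab1, the constitutive form of the chaperone HSP90, gave 929 and 918 against 7716 and 8129 CPM, a log2 ratio of -3.10 (SE 0.19, adjusted p = 9.7e-06). Hsp90aa1, the inducible form, gave 513 and 482 against 2878 and 3268 CPM, a log2 ratio of -2.63 (SE 0.16). Ppia, cyclophilin A, was the highest of the chaperones at -0.10 (SE 0.11). Actb, beta-actin, gave 403 and 333 against 2162 and 1915 CPM, a log2 ratio of -2.47 (SE 0.17). Tubb5, a beta-tubulin, and Cfl1, the actin-severing cofilin, were at -2.75 and -2.37. In each of these genes but Ppia the RNA-seq values were several-fold above the TT-seq values and the replicates did not overlap.

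Atp5b, the catalytic beta subunit of the ATP synthase, gave 255 and 262 against 2503 and 2545 CPM, a log2 ratio of -3.29 (SE 0.15, adjusted p = 3.66e-06). Atp5a1, the alpha subunit, was at -2.86 and Cox4i1, a subunit of cytochrome oxidase, at -2.35. Aldoa, the aldolase of glycolysis, gave 218 and 157 against 1855 and 1810 CPM under its main identifier, a log2 ratio of -3.29 (SE 0.20). Gapdh was at -1.65 (SE 0.16) and Pkm, which makes pyruvate, at -1.05 (SE 0.14). The proteasome genes Psmb4 and Psmd2 were at -2.81 and -2.71, while Psma8, a subunit known from the testis, gave 42.7 and 57.7 against 19.5 and 21.4 CPM, a log2 ratio of 1.30 (SE 0.18). Psma8 fell short of the call under TMM scaling (0.97) and against the retinoic acid controls (0.83).

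Ribosomal protein genes ranged widely. Rpl8 gave 267 and 216 against 2149 and 2268 CPM, a log2 ratio of -3.19 (SE 0.17, adjusted p = 6.11e-06), and Rpl4 gave 455 and 485 against 3625 and 3843 CPM, at -2.99. Rpl3 lay on the other side of 0, with 1365 and 1253 against 890 and 910 CPM and a log2 ratio of 0.54 (SE 0.13) that was not called. It overlaps 4 genes on its strand. Rpl24 gave 192 and 195 against 0.824 and 0.457 CPM, a log2 ratio of 8.26, and overlaps 1 other gene on its strand. It had passed through TT-seq alone, which favoured that side. Where genes overlap, TT-seq reads were counted for each gene and RNA-seq reads in shared exons for none, and the part of this in single ratios was not tested. Over ribosomal protein genes without such overlap the median was -1.31, against -1.26 over all 80. Mitochondrial ribosomal proteins, the kin of these genes for the mitochondrion, had sums closer to balance. These were 2576 and 2726 against 3891 and 4012 CPM, 1.49-fold, and 29 of 78 (37.2%) were rich in steady-state RNA, against 18.5% of all genes.

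The lists kept or changed their side of the median of all genes with the scale. Below that median on both scales were the pluripotency genes, mitochondrial ribosomal proteins, respiratory chain, glycolysis, cytoskeleton, translation factors, proteasome and chaperones. The median of the respiratory chain, for one, was -1.53 on the CPM scale, where all genes had 0.57, and -3.60 per kilobase, where all genes had -1.96. Cytosolic ribosomal proteins moved from -1.26 to -2.04, close to all genes per kilobase. Immediate early genes, signalling feedback genes, histone variants, SR proteins with CLK kinases, Zfp genes and mitochondrial mRNAs lay under the median of all genes on the CPM scale and above it per kilobase. Their direction relative to other genes therefore depends on the scale. On the CPM scale the Zfp list, which differed from all genes by -0.06, and the feedback list also changed side with the genes compared. Among genes with more than 10 counts in all 4 libraries, the Zfp median was 0.38 above that of all such genes and the feedback median 0.05 above.

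**Figure D4:**
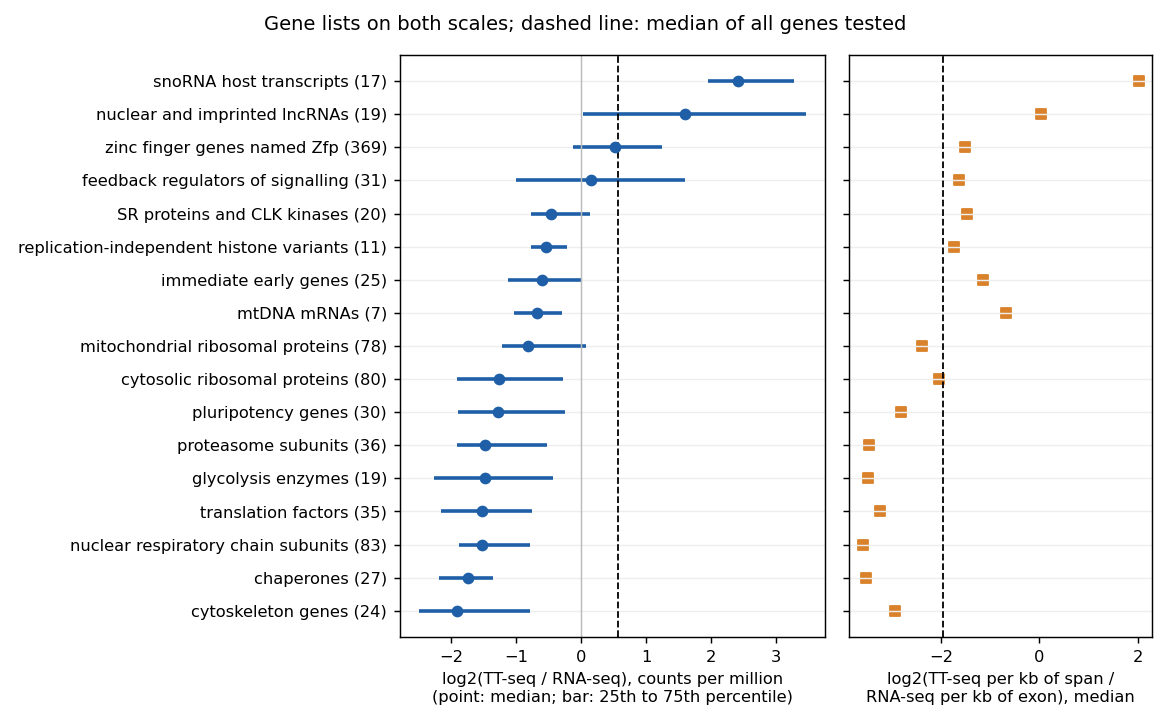
Log2 ratio of TT-seq to RNA-seq by gene list (number of tested members in brackets), as a ratio of CPM (left, median with the 25th to 75th percentile over genes) and per kilobase (right, median), with the median of all genes tested dashed. On the left the dashed line is at 0.57 and on the right at -1.96. Immediate early genes lie left of it at -0.60 and right of it at -1.14.

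Pluripotency genes leaned to steady-state RNA, and their members were far apart. The 30 genes summed to 6040 and 6000 CPM in TT-seq and 9800 and 10196 CPM in RNA-seq, a 1.66-fold difference. Of the 30, 17 were rich in steady-state RNA (56.7%, against 18.5% of all genes) and 2 in nascent RNA, with a median log2 ratio of -1.27. Pou5f1, which encodes the central factor OCT4 (chromosome 17), gave 82.1 and 84.6 CPM in TT-seq and 988 and 1047 CPM in RNA-seq. Its log2 ratio was -3.61 (SE 0.13, adjusted p = 2.08e-06) and its ratio per kilobase -4.69. Sox2, the partner of OCT4, gave 94.7 and 77.9 against 460 and 481 CPM, a log2 ratio of -2.45 (SE 0.14, adjusted p = 8.11e-06) on both scales, since it has 1 exon. Nanog gave 230 and 364 against 681 and 714 CPM, a log2 ratio of -1.23 (SE 0.21, adjusted p = 0.00119). Without the first TT-seq library Nanog was at -0.94 and no longer called.

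Among the genes rich in steady-state RNA, Utf1 was at -2.81 and Tcl1 at -2.71, while some other members sat near balance or on the nascent side. Esrrb, a nuclear receptor of the naive state, gave 1322 and 1278 against 872 and 875 CPM, a log2 ratio of 0.57 (SE 0.13), equal to the median of all genes. Zfp42, the marker REX1, gave 601 and 800 against 532 and 557 CPM, a log2 ratio of 0.37 (SE 0.16). Tfcp2l1, a factor downstream of LIF, was at -0.31 (SE 0.13). Nr5a2, a receptor that binds the Pou5f1 gene, was the highest, with 713 and 614 against 148 and 154 CPM, a log2 ratio of 2.13 (SE 0.13, adjusted p = 1.09e-05). Dppa5a, an RNA-binding protein of the inner cell mass, was the lowest, with 41.1 and 29.2 against 1023 and 1126 CPM, a log2 ratio of -4.94 (SE 0.21, adjusted p = 2.96e-06). Dppa5a spans 1126 bases with 3 exons, and its ratio per kilobase was -5.80.

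**Figure D5:**
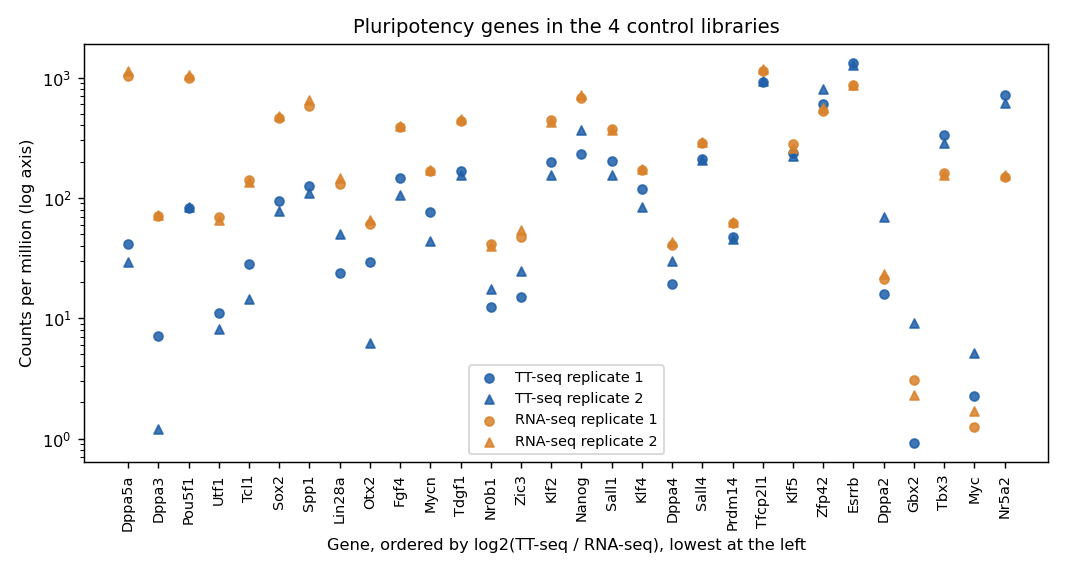
CPM (log axis) of the 30 pluripotency genes in the 4 control libraries, ordered by log2 ratio from the lowest, Dppa5a at -4.94, to the highest, Nr5a2 at 2.13. The RNA-seq replicates nearly coincide, and the TT-seq replicates part most for Dppa3, Otx2, Dppa2 and Gbx2.

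Immediate early genes respond to signals within minutes and most of their mRNAs are short-lived, with AU-rich elements that recruit decay factors. In these control cells their 30 genes summed to 746 and 664 CPM in TT-seq and 1291 and 1275 CPM in RNA-seq, a 1.82-fold difference. Of the 25 tested, 3 were rich in nascent RNA (12%, against 42.4% of all genes and 31.6% of protein-coding genes). Another 8 were rich in steady-state RNA (32%, against 18.5% and 19.8%). The median log2 ratio of the list was -0.60, and -1.14 per kilobase where all genes had -1.96. Jund, a subunit of AP-1 with 1 exon, gave 16.8 and 12.1 against 196 and 172 CPM, a log2 ratio of -3.68 (SE 0.18, adjusted p = 5.07e-06). Klf10 was at -1.66, Junb at -1.42, Ier2 at -1.13 and Jun at -1.14. Jun was not called without the first RNA-seq library (-1.04) or against the retinoic acid controls (-0.47). Mcl1, a survival factor of the BCL2 family, gave 182 and 232 against 299 and 315 CPM, and its log2 ratio of -0.56 was not called. Fos and Egr1, the best known of the set, were low in both assays: Fos gave 8 and 5 against 13 and 15 counts, and Egr1 gave 14 and 11 against 11 and 17 counts. No difference between the assays was detectable for them at this depth, with log2 ratios of -0.82 (SE 0.51) and 0.12 (SE 0.45).

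Myc gave 22 and 68 counts in TT-seq and 15 and 26 in RNA-seq, a log2 ratio of 1.34 (SE 0.48, adjusted p = 0.0328). The ratio was 0.60 without the second TT-seq library and 1.14 without the first RNA-seq library, neither called. Under TMM (1.02) and DESeq2 scaling (1.07) Myc also lost its call. Other RNA-seq controls of the series were the DMSO cells of a retinoic acid experiment, taken before retinoic acid was given. Against these the ratio of Myc turned to -2.48. Atf3, a stress factor, gave 24.6 and 8.98 against 4.37 and 4.18 CPM, a log2 ratio of 1.96 (SE 0.46). Fosl2 gave 20 and 35 against 1 and 8 counts, a log2 ratio of 2.84 (SE 0.61). It had passed through TT-seq alone, which favoured that side.

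Feedback genes are induced by a pathway and dampen it, and members were called on both sides. Of 31 tested, 9 were rich in nascent RNA (29%, against 42.4% of all genes but near the 31.6% of protein-coding genes). Another 8 were rich in steady-state RNA (25.8%, against 18.5% and 19.8%), and the median log2 ratio of the list was 0.15. The 9 include Etv4, whose first TT-seq library, at 3.91 CPM, lay under both RNA-seq libraries, at 4.12 and 4.77 CPM, so that its call (adjusted p = 0.0392) rests on the second, at 40.7 CPM. Smad7 and Smad6, inhibitors of TGF-beta and BMP signalling, were on the nascent side. Smad7 gave 619 and 410 against 63.3 and 57.9 CPM, a log2 ratio of 3.09 (SE 0.21, adjusted p = 1.58e-05), and Smad6 was at 2.74 (SE 0.16). Lefty1 and Lefty2, secreted inhibitors of Nodal, were on the other side. Lefty2 gave 81.1 and 41.4 against 809 and 843 CPM, a log2 ratio of -3.76 (SE 0.30, adjusted p = 3.17e-05), and Lefty1 was at -3.72 (SE 0.18).

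Id3, a target of BMP signalling, gave 72 and 157 counts in TT-seq and 10 and 9 in RNA-seq, a log2 ratio of 3.78 (SE 0.41, adjusted p = 0.000129), whereas its relative Id1 was at -1.67 (SE 0.41). Id3 had passed through TT-seq alone and Id1 through RNA-seq alone, so the filter favoured these sides. Socs3, the feedback inhibitor of LIF signalling, gave 48.7 and 39.8 against 92 and 91.1 CPM, a log2 ratio of -1.05 (SE 0.14, adjusted p = 0.000333) that was -0.91 without the second TT-seq library, short of the call. Dusp6, a phosphatase of ERK, gave 5.14 and 7.09 against 6.59 and 6.72 CPM, and Etv5, an ETS factor downstream of FGF, gave 484 and 624 against 314 and 319 CPM. Their log2 ratios of -0.11 (SE 0.28) and 0.81 (SE 0.15) were not called. Spry4, an inhibitor of receptor tyrosine kinase signalling, gave 22 and 197 counts against 2 and 1, and was called rich in nascent RNA with an adjusted p of 0.00182 although its TT-seq replicates differed several-fold. Spry4 too had passed through TT-seq alone, which favoured that side. Against the RNA-seq controls of the retinoic acid experiment the ratios of Spry4 and Id3 turned to -1.23 and -0.53, and that of Dusp6 became -1.48 and was called rich in steady-state RNA (edgeR, adjusted p = 0.000606).

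The AU-rich nonamer TTATTTATT, a core of the element that marks short-lived mRNAs, was searched for on the transcript strand of annotated 3′ UTRs. It was present in 914 of 12934 protein-coding genes tested that have an annotated 3′ UTR and are not replication-dependent histones. Genes with the nonamer had a median log2 ratio of 0.55 and those without 0.13, and per kilobase the medians were -1.93 and -2.34. Longer 3′ UTRs hold the nonamer more often and also had higher ratios, from -0.14 under 500 bases to 0.82 from 4000 bases on. Within UTRs of 1000 to 2000 bases the medians were 0.58 over 236 genes with the nonamer and 0.20 over 2799 without. Of the 25 immediate early genes tested, 7 (28%) held it, where 6.95% of all protein-coding genes outside the histones did. A match is a description of these letters, and decay was not measured.

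Zinc finger genes named Zfp, mostly DNA-binding factors of the KRAB and related families, lay near all genes on the CPM scale, on either side depending on which genes are compared. Their 400 genes summed to 16462 and 17941 CPM in TT-seq and 12307 and 13055 CPM in RNA-seq, a 1.36-fold difference. Of 369 tested, 119 were rich in nascent RNA (32.2%, against 42.4% of all genes but near the 31.6% of protein-coding genes). Another 22 were rich in steady-state RNA (5.96%, against 18.5% and 19.8%). Without genes that overlap on their strand the median of the list was 0.27 above that of all genes. Zfp704 gave 551 and 566 against 124 and 135 CPM, a log2 ratio of 2.11 (SE 0.12, adjusted p = 8.19e-06). Zfp296, a factor of the pluripotency network, was the lowest, with 17.1 and 15.8 against 96.1 and 84.7 CPM, a log2 ratio of -2.46 (SE 0.14). Zfp143, the gene that carries the degron (chr7:110061217-110095394), gave 70.9 and 73.7 against 38.6 and 40.5 CPM. Its log2 ratio of 0.87 (SE 0.12, adjusted p = 0.000463) fell short of the call and was -2.42 per kilobase, where protein-coding genes had -2.28. Against the retinoic acid controls Zfp143 was at 1.08 and called.

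Splicing regulators of the SR family with the CLK kinases that phosphorylate them keep part of their transcripts in the nucleus as intron-retaining forms. Of the 20 tested, 4 (20%) were rich in steady-state RNA, near the 18.5% of all genes, and the median log2 ratio was -0.46. Clk1 gave 150 and 173 against 111 and 110 CPM, a log2 ratio of 0.55 (SE 0.12), and Clk4 was at 0.87 (SE 0.15), the highest of the list. It lay below the limit of 1, so no member was called rich in nascent RNA, where 42.4% of all genes and 31.6% of protein-coding genes were. Clk4 was called without the first TT-seq library (1.01) and against the retinoic acid controls (1.26), as was Clk1 against the latter (1.07). Srsf9 and Srsf1, SR proteins that choose splice sites, were the lowest at -2.39 and -1.99.

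Among protein-coding genes with no same-strand overlap and a mean of at least 100 counts, the 10 highest ratios belonged to 9 replication-dependent histone genes and Filip1l. Filip1l (chr16:57353093-57573126) gave 1653 and 1177 counts in TT-seq and 0 and 3 in RNA-seq, and so had passed through TT-seq alone. Filip1l lies on the plus strand inside the span of Cmss1, which is on the minus strand and 304865 bases long. Cmss1 gave 3171 and 2468 against 21.7 and 20.8 CPM. The log2 ratio of Cmss1 was 7.05 (SE 0.22, adjusted p = 1.28e-06) on the CPM scale and -0.20 per kilobase. Gm20388 gave 40181 and 47511 counts in TT-seq and none in RNA-seq, at least 34921-fold, and its annotation spans 4434882 bases with 90 other genes on the strand.

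The 10 lowest ratios in the same set were those of Gm10031, Dppa5a, Cldn6, Hmga1b, Gm4737, Ifitm1, Trh, Arsa, Ifitm3 and Aldh1b1. Ifitm1 and Ifitm3 encode membrane proteins that restrict viruses and lie close together on chromosome 7. Ifitm1 gave 15.2 and 10.6 against 359 and 331 CPM, a log2 ratio of -4.75 (SE 0.19, adjusted p = 2.7e-06), and Ifitm3 gave 12.8 and 11.4 against 252 and 246 CPM, at -4.37 (SE 0.14). Trh, the precursor of thyrotropin-releasing hormone, gave 12.1 and 18.1 against 324 and 388 CPM, a log2 ratio of -4.54 (SE 0.22). Cldn6, a tight junction protein of early embryonic epithelia, gave 7 and 8 counts against 266 and 290, a log2 ratio of -4.94 (SE 0.29). Cldn6 had passed through RNA-seq alone, which favoured that side. All of these genes span under 6 kb. Hmga1b, at -4.92 with 1 exon, may share reads with the chromatin protein gene Hmga1, of which it is a near copy, so its value is uncertain.

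Processed pseudogenes, intronless copies of mRNAs, stood on the steady-state side as a class. The 9936 annotated copies summed to 1086 and 1047 CPM in TT-seq and 6187 and 5957 CPM in RNA-seq, a 5.69-fold difference. Of 655 tested, 476 were rich in steady-state RNA (72.7%, against 18.5% of all genes) and 131 in nascent RNA (20%, against 42.4%), and of all 655, 462 had passed through RNA-seq alone and 128 through TT-seq alone. The copy Rps3a3 gave 10.4 and 12.4 against 415 and 413 CPM, a log2 ratio of -5.17 (SE 0.15, adjusted p = 1.28e-06), and Gm13456 gave 9.98 and 7.39 against 451 and 414 CPM, at -5.65 (SE 0.18). TT-seq kept reads that mapped uniquely, and reads of a copy and its parent gene can be exchanged, so these values cannot be assigned to the copies with certainty.

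The identity of the cells was checked with marker genes. The 10 stem cell markers were all measured and summed to 2813 and 2988 CPM in TT-seq and 5625 and 5882 CPM in RNA-seq. Fibroblast and feeder markers summed to at most 3 CPM in any library, and no 2-cell-like marker passed the filter, with sums of 0.206 to 2.06 CPM. Of 9 primitive endoderm markers 4 passed, Lama1, Sparc, Gata4 and Dab2. The sum of 270 to 348 CPM came mainly from Lama1 and Sparc. Gata4 gave 99 and 85 counts in TT-seq and 58 and 82 in RNA-seq, and Dab2 gave 14 and 24 against 1 and 13. Sox17, Foxa2, Afp, Gata6 and Ttr did not pass. Of 10 mesoderm and neural markers 4 passed, Nes, Tubb3, Eomes and Sox1, with sums of 67.1 to 217 CPM.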

How the data were processed

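Counts per gene were taken from the tables the authors deposited. For TT-seq, per the labels and the study's methods, reads were aligned with STAR to mm10, reads that mapped uniquely were kept, duplicates were removed with Picard, strands were separated, and HTSeq counted reads over whole genes of a GENCODE annotation, with each of several overlapping genes credited. For RNA-seq, STAR counted reads over exons, and no removal of duplicates is stated. The 4 control libraries, 2 biological replicates per assay as the methods describe them, were mapped to groups by title and joined on gene identifier. Gene span, exons and overlaps came from the GENCODE vM21 annotation on GRCm38, which matched 55141 of 55401 identifiers.

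The main test was edgeR 4.0.16 (quasi-likelihood, library totals as the scale, no other covariate) on genes with more than 10 counts in both libraries of an assay, in R 4.3.3, with p-values adjusted over all 17276 genes. The fit was also run on simulated data with 200 changed genes. That is a far smaller share than was called here, so the run does not show how the test behaves in this comparison. Alternatives were limma 3.58.1 and DESeq2 1.42.0, other scalings and filters, a replicate block, leaving out each library, and other RNA-seq controls. Named genes were, from each list, up to 4 members of highest CPM with the highest and lowest ratio, the 10 highest and 10 lowest protein-coding genes, the 5 genes of highest CPM per assay, and 27 fixed genes. Other genes in the text were chosen after their values were seen. The members and lists were chosen with earlier results of these data known. Sequences were read from the GRCm38 genome with pysam 0.24.0. Fold bounds against 0 use 3 counts over both libraries and cover counting error only.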

Additional observations from a re-analysis of the deposited data

How the results depend on the processing

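Counts of genes rich in nascent and in steady-state RNA ranged from 7099 to 7324 and from 3053 to 3388 when 1 library was left out. TMM scaling gave 6499 and 4164, with the median of all genes moved by -0.33 on the log2 scale, and the DESeq2 Wald test gave 6311 and 3807. Requiring more than 10 counts in all 4 libraries left 11991 genes, of which 3062 and 2434 were called. Outside the fits with other RNA-seq controls, no gene was called on opposite sides. With the replicate block the counts were 7307 and 3206, and 7270 and 3168 of the original calls remained. Deviations of equally numbered libraries correlated with r = 0.23 over 8358 genes, but with only 2 pairs the numbers are not shown to pair samples. Of 26 gene lists, 16 lay under the median of all genes, also when any library was left out, and 10 did per kilobase. Spearman's rho with span was 0.57 over protein-coding genes other than replication-dependent histones, 0.55 to 0.57 with 1 library left out, 0.59 without overlaps, 0.62 with more than 10 counts in all 4 libraries and -0.09 per kilobase. The difference of medians with and without the AU-rich nonamer was 0.42, ranged from 0.38 to 0.44 with 1 library left out, and was 0.62 with the retinoic acid controls. With these controls the ratio reversed for Spry4 (-1.23), Id3 (-0.53), Myc (-2.48), H2-M6-ps (-0.01) and, on the same genes, 4933431E20Rik (0.19). Without RNA-seq replicate 1 that of Gm23935 reversed to 1.06, and without RNA-seq replicate 2 it was -0.77. The causes were not tested. Of 190 named genes called, 23 lost the call in at least 1 of 17 settings, and of 45 not called, 20 gained one, 15 of them outside the fits with retinoic acid controls. The fit on totals without CT010467.1 and Lars2 and that with retinoic acid controls on the same genes were added after seeing the data. Depth limits genes such as Fos and Egr1, with at most 17 counts in any library.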

Other observations

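Some signalling and pluripotency genes differed between the TT-seq replicates far more than between the RNA-seq replicates, and these were chosen after their values were seen. Etv4, an ETS factor induced by FGF signalling, gave 3.91 and 40.7 CPM in TT-seq and 4.12 and 4.77 CPM in RNA-seq. Sp5, a target of WNT signalling, gave 14 and 125 counts in TT-seq and 23 and 27 in RNA-seq. Dppa2, a chromatin factor of the early embryo, gave 16 and 68.9 against 21 and 23.4 CPM, and Gbx2, a target of LIF signalling, gave 0.926 and 9.2 against 3.05 and 2.29 CPM. In these 4 genes the second TT-seq library was the higher. Dppa3, a maternal factor that protects methylation, gave 7.1 and 1.21 against 71.2 and 72.6 CPM, and Otx2, a factor of the formative state, gave 29.5 and 6.26 against 60.8 and 65.2 CPM, both with the first TT-seq library higher. Of genes with more than 10 counts in all 4 libraries, 524 of 11991 (4.37%) differed more than 2-fold between the TT-seq replicates and 41 (0.342%) between the RNA-seq replicates. Among pluripotency genes 5 of 29 did so in TT-seq, among immediate early genes 4 of 23 and among feedback genes 2 of 26.

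The DMSO controls of the retinoic acid experiment, sequenced as RNA-seq in the same line, differed from the RNA-seq controls used above in some signalling genes. Of 11 such genes looked at, chosen after values were seen and not from a fixed list, 9 were higher in both of these controls and 2 lower. Myc took 21.7 and 20.8 CPM there, against 1.24 and 1.7 CPM in the controls of the depletion time course. Spry4 took 22.6 and 18.8 against 0.165 and 0.0653 CPM, Id3 took 14.4 and 13.7 against 0.824 and 0.588 CPM, and Etv4 took 56.8 and 55.2 against 4.12 and 4.77 CPM. Dusp6 was closer, with 16.6 and 17.8 against 6.59 and 6.72 CPM, as was Axin2, with 64.1 and 63.7 against 46.7 and 47.4 CPM, and Spry2 was closest, with 54.3 and 59.9 against 44.4 and 52.9 CPM. Fos, with 0.758 and 0.287 against 1.07 and 0.979 CPM, and Egr1, with 0.446 and 0.623 against 0.907 and 1.11 CPM, were the lower ones. The TT-seq values of Myc, 2.26 and 5.13 CPM, lay between the sets. For Myc, Spry4, Id3 and Dusp6, among others, a ratio of nascent to steady-state RNA depends on which RNA-seq controls are taken, and no test of the difference between the sets was run.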
